A study of Mus musculus with 12 samples.

Results

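The miR-297, miR-466, miR-467 and miR-669 families are mouse miRNAs most of whose genes are repeated in a row inside the gene Sfmbt2. Member probes were chosen by name: any mouse probe that names at least 1 lettered miRNA of these 4 numbers, either arm. The rule uses no measured value, and it takes 33 of the 566 mouse miRNA probes. Of these, 12 name miR-466, 9 name miR-669, 7 name miR-467 and 3 name miR-297 alone. The other 2 name several numbers: miR-467h/miR-669d/miR-669l and miR-297a/miR-466f/miR-669b. With miR-466a-3p/miR-466b-3-3p and miR-466a-5p/miR-466e-5p they make 4 probes that read more than 1 miRNA and cannot tell these apart.

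Levels come from a NanoString nCounter panel of mouse miRNAs, in which a colour-coded probe is counted for each miRNA, in IMM cells, an immortalized mouse macrophage line. Lipopolysaccharide (LPS, the Gram-negative outer membrane component that activates macrophages through Toll-like receptor 4) was given at 100 ng/mL for 30, 60 or 120 min, and the series names the 0 min samples as its control. Each of the 4 times had 3 biological replicates, 12 samples in all, grown in the same serum-containing DMEM with HEPES and taken 5 passages after thawing. The cells are 1 immortalized line, so its values describe that line and not macrophages from several animals.

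The Sfmbt2 cluster is rodent-specific. It grew by repeated duplication within an intron of Sfmbt2, a Polycomb-group gene that is imprinted, is read from the paternal copy and is best known from the trophoblast and placenta. A miRNA is cut from a hairpin as a short strand whose bases 2 to 8, the seed, pair with target mRNAs, so members with different seeds address different targets. In macrophages, miR-466l has been described as protecting the interleukin-10 mRNA by competing with the decay factor tristetraprolin, and miR-467b has been described as lowering lipoprotein lipase.

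Mature sequences from RefSeq (GRCm38.p6) were matched to 6 of the 33 probes, and they are shown for the repeat they carry. All 6 come from genes outside Sfmbt2, which is on chromosome 2. No sequence of a member gene inside it was matched, so the most abundant members are not represented. Capitals mark the seed.
miR-466k (chr3:85467396-85467418, plus strand): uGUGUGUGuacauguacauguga
miR-466j (chr10:60960802-60960824, plus strand): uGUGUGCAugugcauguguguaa
miR-467h (chr9:115381898-115381919, plus strand): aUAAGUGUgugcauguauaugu
miR-466i-3p (chr13:17747552-17747573, plus strand): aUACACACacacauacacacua
miR-467f (chr11:69635419-69635439, minus strand): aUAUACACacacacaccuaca
miR-467g (chr5:34732872-34732892, minus strand): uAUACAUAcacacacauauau

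The first 3 are rich in alternating U and G and the last 3 in alternating C and A. The longest uninterrupted UG run was 8 bases in miR-466k and 6 in miR-466j and in miR-467h, and the longest CA run was 10 in miR-466i-3p, 10 in miR-467f and 8 in miR-467g. A UG or CA run of at least 8 bases was found in 11 of the 1679 mature sequences in that table (0.655%). The 6 sequences have 6 different seeds. Compared over their whole length, seed included, the UG-rich sequences and the CA-rich sequences are each close among themselves in several pairs: miR-467f and miR-467g match at 17 of 20 overlapping bases, miR-466k and miR-467h at 17 of 21, and miR-466j and miR-466k at 16 of 19. Between the UG-rich and the CA-rich sequences matches were fewer, such as 7 of 22 for miR-466i-3p and miR-466j and 8 of 21 for miR-466j and miR-467f. How far a probe also reads such close relatives was not tested, and the probe for miR-466i names no arm.

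The deposited value is a signal: counts multiplied by 1 factor per sample that gives 4 housekeeping mRNAs the same mean. Low values are written as a floor of 20, but this is not only a cut at a signal of 20. In every sample with a factor above 1, the lowest value above the floor was 20 counts, so fewer counts were floored even where their signal exceeded 20. Depth over mouse miRNAs ran from 114754 to 313170 counts per sample, and a floored entry hides up to just under 45.29 in 0 min replicate 1, the sample with the fewest counts. The highest of 8 negative controls read 24 to 36 counts per sample, so a member near the floor is not clearly above background. Of 7 miRNAs listed as myeloid, 6 were above the floor in all 12 samples, with a summed signal of 10086 to 18091 at 0 min and 21829 to 45912 at 120 min, while miR-155 never left the floor. A large part of that sum was miR-16, with a mean of 5607 at 0 min and 12670 at 120 min. The summed signal of 5 epithelial probes reached at most 101.9 in any sample, that of 3 neuronal probes 89.4 and that of 3 muscle probes 50.4, and the liver probe miR-122 was at the floor throughout. Among these, miR-200b and miR-200c were above the floor in 10 samples each, miR-128 in 11 and miR-124 in 9.

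Most of the families' probes had signal in these cells. Above the floor in at least 1 sample were 22 members, and 16 (48.5%) were above it in all 12 samples, against 129 of all 566 probes (22.8%). At the floor in all 12 samples were 11 members (33.3%), against 263 of 566 (46.5%). These 11 were miR-297b-3p, miR-297b-5p, miR-466d-5p, miR-466f-5p, miR-466i, miR-466j, miR-467d, miR-467g, miR-669g, miR-669i and miR-669j, whose level was not detectable at this depth. Judged against the highest negative control of each sample, 12 members were above it in all 12 samples. Between 16 and 22 members were above the floor in a sample, with 16, 16 and 17 at 0 min, 20, 20 and 21 at 30 min, 22, 22 and 21 at 60 min, and 22, 21 and 19 at 120 min. All 9 stimulated samples had more members above the floor than any 0 min sample. The same was true of mouse miRNAs in general, with 148 to 170 above the floor at 0 min and 191 to 267 after LPS. Depth was 114754 to 173145 counts at 0 min and 165897 to 313170 after LPS. Above a common floor of 45.29, members numbered 16, 12 and 12 at 0 min and 12 to 19 after LPS, so the times overlapped. How far depth and the floor set the counts of members was not tested.

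Together the 33 members held 4.16% ± 0.292 (SD, n = 12) of the mouse miRNA signal, between 3.74% and 4.83% in a sample. This share does not depend on the scaling of a sample. It was 4.0% ± 0.0620 (SD, n = 3) at 0 min, 4.35% ± 0.0583 at 30 min, 4.34% ± 0.469 at 60 min and 3.96% ± 0.199 at 120 min. The 3 samples at 30 min lay above the 3 at 0 min, whereas those at 60 and 120 min overlapped 0 min. Summed signal was 7190 ± 2943, 8670 ± 1230, 9367 ± 2647 and 9744 ± 3855 in the same order, with overlap between all 4 times.

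Most of it came from few probes. MiR-669f, miR-466a-3p/miR-466b-3-3p and miR-467c held 66.8% of the member signal, and miR-669a and miR-669o brought the share of the 5 most abundant to 81.1%. Ranked by mean signal among the 566 probes, these 5 stood at 21, 22, 36, 37 and 47, and 12 members were among the 100 most abundant miRNAs. Levels set across probes also carry each probe's own efficiency, which the files do not give.

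**Figure D1:**
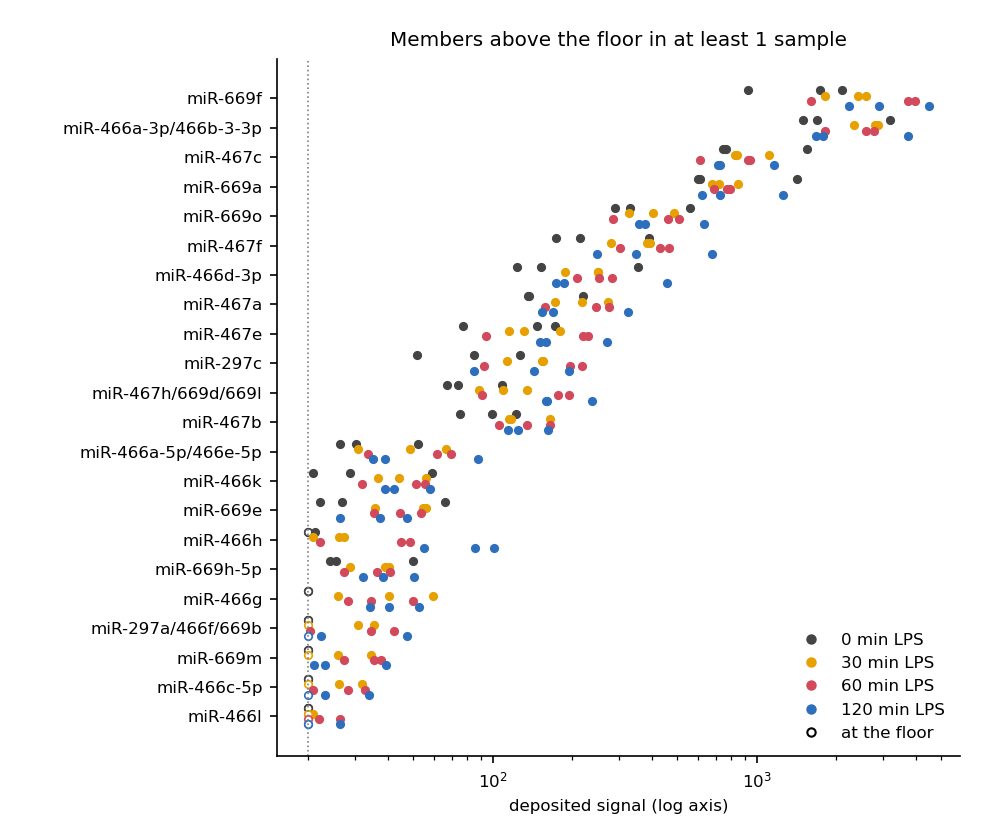
Deposited signal (log axis) of the 22 members above the floor in at least 1 sample, 1 point per sample, coloured by minutes of LPS, with open points and the dotted line at the floor of 20. Levels span from the floor to 4496 in miR-669f, and samples at the floor occur in the lowest members, such as miR-466h, miR-466g and miR-466l.

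By family, miR-669 held 43.9% of the member signal, miR-466 32.4%, miR-467 20.4%, the probes naming several numbers 1.71% and miR-297 1.51%. The miR-669 part was 40.8% ± 4.74 (SD, n = 3) at 0 min, 40.7% ± 1.29 at 30 min, 46.2% ± 3.41 at 60 min and 48.0% ± 2.39 at 120 min. The miR-467 part was 23.3% ± 0.735 at 0 min, 20.5% ± 1.65 at 30 min, 19% ± 1.08 at 60 min and 19% ± 0.991 at 120 min. The miR-466 part was 33.4% ± 4.25 at 0 min and 29.4% ± 2.71 at 120 min. As a share of all mouse miRNA signal, miR-467 went from 0.932% ± 0.0361 at 0 min to 0.750% ± 0.00811 at 120 min, without overlap. The miR-669 share was 1.63% ± 0.175 and 1.90% ± 0.132 at these times. These shares are descriptions and were not tested, and how often such shares lie without overlap among other miRNAs was not counted. The probes of a family did not move alike. Mean deposited signal of miR-467c was 1017 at 0 min and 868 at 120 min, while miR-467a, miR-467b, miR-467e and miR-467f were higher at 120 min. In miR-669, miR-669f went from 1589 to 3213, miR-669o from 394 to 454 and miR-669a from 878 to 868.

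**Figure D2:**
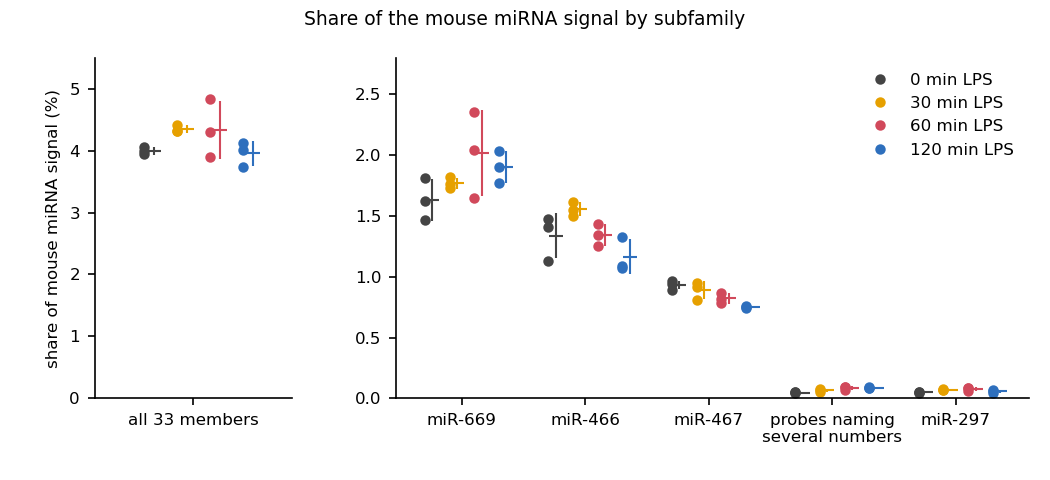
Share of the mouse miRNA signal (%) held by all 33 members and by each family, 1 point per sample with mean and SD of 3 samples per time. All members together stay between 3.74% and 4.83%, while the miR-467 share is lowest at 120 min.

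In miR-669, the family with the most signal, miR-669f stood at 2106, 1733 and 928 in 0 min replicates 1 to 3, at 2416, 1810 and 2596 at 30 min, at 3961, 3751 and 1609 at 60 min, and at 4496, 2912 and 2232 at 120 min. All 3 samples at 120 min were above every 0 min sample, while 60 min replicate 3 fell within the 0 min range. MiR-669a gave 1424, 601 and 608 at 0 min, 848, 674 and 717 at 30 min, 768, 791 and 688 at 60 min, and 1258, 728 and 619 at 120 min. The highest miR-669a signal was that of 0 min replicate 1, and the times overlapped. MiR-669o gave 559, 332 and 291.2 at 0 min, 485, 327 and 405 at 30 min, 509, 460 and 286 at 60 min, and 630, 357 and 376 at 120 min, also with overlap. Near the filter for testing lay miR-669e, from 22.07 to 65.67 over the 12 samples, and miR-669h-5p, from 24.24 to 50.40. MiR-669m was above the floor in 8 samples and reached 39.44.

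In miR-466 nearly all signal came from miR-466a-3p/miR-466b-3-3p, at 3200, 1491 and 1684 at 0 min, 2886, 2340 and 2798 at 30 min, 2776, 2591 and 1813 at 60 min, and 3740, 1780 and 1669 at 120 min. Replicate 1 was the highest at each of the 4 times, and the times overlapped. The probe miR-466a-5p/miR-466e-5p, for the other arm of miR-466a, lay between 26.32 and 87.66. MiR-466d-3p lay between 123.96 and 458.0 while miR-466d-5p never left the floor, and miR-466k lay between 20.77 and 58.88.

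MiR-466h and miR-466g, with neighbouring genes, were weak members with the lowest signal at 0 min. MiR-466h gave 20, 20 and 21.23 at 0 min, 27.29, 20.87 and 26.13 at 30 min, 44.91, 48.64 and 22.10 at 60 min, and 100.8, 55.01 and 85.32 at 120 min, where 20 is the floor. The 120 min samples were above all other samples, with 92, 69 and 114 counts against 33, 24 and 28 for the highest negative control of the same sample. MiR-466g gave the floor in all 3 samples at 0 min, 40.34, 25.84 and 59.38 at 30 min, 28.20, 49.95 and 34.47 at 60 min, and 52.59, 34.28 and 40.41 at 120 min. All 9 stimulated samples were above the floor, but only 3 of them exceeded the 45.29 that a floored entry of 0 min replicate 1 may hide. MiR-466c-5p was above the floor in 7 samples, and miR-466l, the member described in interleukin-10 control, in 4, with 20 to 24 counts, no more than the lowest of the samples' highest negative controls.

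In miR-467, miR-467c gave 1544, 763 and 744 at 0 min, 1107, 829 and 843 at 30 min, 941, 922 and 606 at 60 min, and 1164, 715 and 725 at 120 min. It is the only member whose fitted mean was lower at 120 than at 0 min on this scale, and the 2 times overlapped. MiR-467f gave 392, 214 and 174 at 0 min, 382, 279 and 394 at 30 min, 429.2, 463 and 302 at 60 min, and 675, 349 and 248 at 120 min. Its 120 min samples overlapped those at 0 min. MiR-467a ran from 135.84 to 325.42, miR-467e from 77.26 to 271.73, and miR-467b, described in control of lipoprotein lipase, from 75.31 to 164.93.

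The shared probe miR-467h/miR-669d/miR-669l gave 108.7, 73.58 and 67.07 at 0 min, 135.27, 88.46 and 109.25 at 30 min, 176.49, 194.56 and 91.05 at 60 min, and 236.67, 158.66 and 160.15 at 120 min. Its 120 min samples were all above its 0 min samples. MiR-297c, the only miR-297 probe with signal of its own, gave 126.81, 84.83 and 51.79 at 0 min, 153.06, 113.31 and 155.56 at 30 min, 196.33, 218.22 and 92.82 at 60 min, and 195.03, 142.71 and 84.57 at 120 min. Here 120 min replicate 3 lay within the 0 min range. The probe miR-297a/miR-466f/miR-669b was above the floor in 7 samples, all after LPS, and reached 47.11.

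In the RefSeq gene table (GRCm38.p6), used for names and neighbourhood only, Sfmbt2 on chromosome 2 holds 72 miRNA genes, and all 72 belong to these 4 families. Of the member probes, 25 name only genes inside Sfmbt2, 5 only genes elsewhere, and 3 genes of both kinds. Among the 25, 13 were above the floor in all 12 samples and 7 at the floor in all 12. Among the 5 outside, miR-467f on chromosome 11 and miR-466k on chromosome 3 were above the floor in all 12 samples, and miR-466j on chromosome 10, miR-466i on chromosome 13 and miR-467g on chromosome 5 were at it in all 12. No probe of these 5 reads a gene inside Sfmbt2 by its name, and the mRNA of Sfmbt2 was not analysed here.

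The number of gene copies and the signal did not run together in the most abundant members. MiR-669f has 1 gene in the table and a mean signal of 2546 over the 12 samples, and miR-467c has 1 gene and a mean of 909. MiR-669a has 12 genes and a mean of 810, and miR-467a has 10 genes and a mean of 207. The most abundant member, miR-669f, is number 3 in order from the start of Sfmbt2, next to miR-669e at number 4 with a mean of 42.1. The run from miR-669o at number 65 through miR-466g and miR-466h at numbers 66 and 67 spans means of 418, 35.5 and 41.0.

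**Figure D3:**
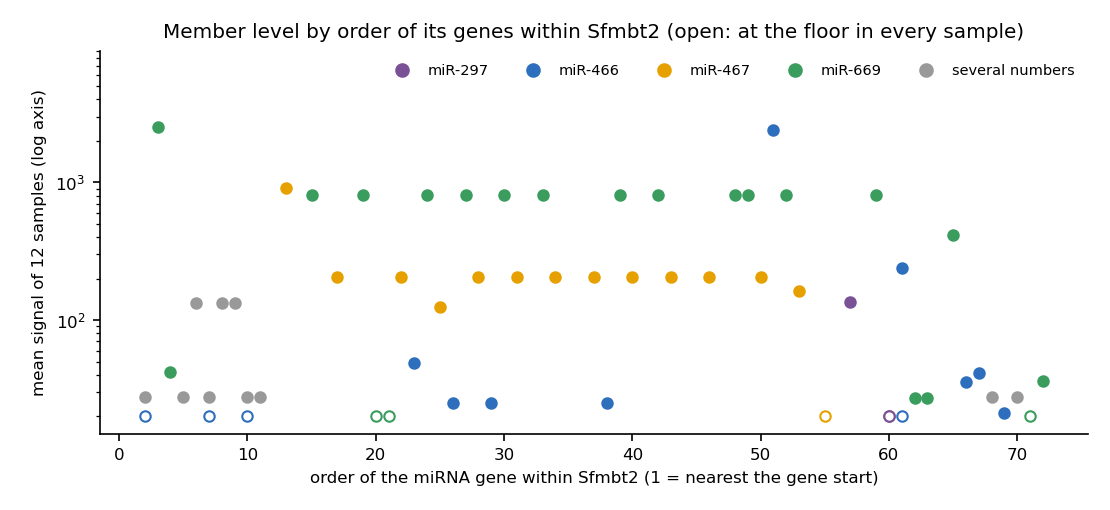
Mean signal over 12 samples (log axis) of each member against the order of its miRNA genes within Sfmbt2 (1 is nearest the gene's start), coloured by family, with open points for members at the floor in every sample. A probe with several genes appears at each of them with the same value, as miR-669a does at 12 places, and neighbouring genes can differ widely, as miR-669f (2546) and miR-669e (42.1) do.

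At 30 min of LPS no member passed the test. The test was a linear model on log2(signal + 1) over the 166 mouse miRNAs whose mean signal exceeded 30.5, with p values adjusted over all 166. It held 18 of the 33 members (54.5%, against 29.3% of all probes). Just inside that threshold lay miR-466g at 35.5 and miR-669h-5p at 36.1, and just outside it the probe miR-297a/miR-466f/miR-669b at 27.7 and miR-669m at 27.0. Of the 166 miRNAs, 3.01% passed at 30 min. Unadjusted p was under 0.05 for 2 members, miR-297c (log2 change 0.75 ± 0.38, SE, limma adjusted p = 0.373) and miR-466g (0.95 ± 0.38). The share of the 166 with an unadjusted p under 0.05 was not counted, at this or any other time. The median log2 change was 0.42 over the 18 members and 0.28 over the 166. Under the scaling of each sample to its 100 most abundant miRNAs, 12 of them members, the medians were 0.08 and -0.06, and again 0 members passed (limma, 3 with an unadjusted p under 0.05), against 0.602% of the 166.

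At 60 min 0 of 18 members passed on the deposited scale, against 10.8% of the 166, and 5 had an unadjusted p under 0.05 in limma, all higher. The members' median log2 change was 0.44 and that of the 166 was 0.43. Under top-100 scaling 3 members fell, against 19.9% of the 166 that did: miR-467c by 0.72 on the log2 scale (SE 0.13, limma adjusted p = 0.00368), miR-669a by 0.58 (SE 0.17, adjusted p = 0.0244) and miR-669o by 0.37 (SE 0.12, adjusted p = 0.0340). In all 3 members each 60 min sample lay below each 0 min sample on that scale, an order found in 24.1% of the 166 and also in miR-669h-5p, which did not pass. At this time 0 members rose, against 11.4%. The medians there were -0.02 over the members and -0.03 over the 166. Without 0 min replicate 1, left out after seeing the data, miR-467c alone passed of the 3 (-0.64).

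At 120 min 4 of 18 members (22.2%) rose on the deposited scale and 0 fell, a share next to the 21.7% of the 166 that rose. These were miR-466h (log2 change 1.88 ± 0.38, SE, limma adjusted p = 1.67e-05), miR-467h/miR-669d/miR-669l (1.15 ± 0.38, adjusted p = 0.0162), miR-669f (1.04 ± 0.38, adjusted p = 0.0332) and miR-466g (1.03 ± 0.38, adjusted p = 0.0336). In all 4 each 120 min sample lay above each 0 min sample, an order found in 34.9% of the 166. MiR-466h (mean signal 20.4 at 0 min and 80.4 at 120 min) and miR-466g (20 and 42.4) entered the test only through stimulated samples. Their 0 min means were under the filter of 30.5, so part of their rise over 0 min was set by that selection. The median log2 change was 0.45 over the members and 0.57 over the 166, so the deposited scale moved upward for miRNAs as a whole. Top-100 scaling gave a median of -0.06, but it levels the 100 most abundant of these miRNAs between samples, so it cannot measure that shift. The median was -0.18 under scaling to the ligation controls, added RNAs that report on the tagging step. Their summed counts per 1000 counts of the positive hybridization controls were 142 to 293.1 in the 0 min samples and 384 to 529 in the stimulated ones, and the part of this in the members' changes was not tested. The 3 comparisons share their 0 min samples, so their values are not independent of each other.

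Under top-100 scaling at 120 min, 2 of 18 members (11.1%) rose, against 14.5% of the 166, and 5 (27.8%) fell, against 27.1%. Both shares are near those of the tested miRNAs at large, so the counts show nothing particular to the members. The risers were miR-466h (1.26 ± 0.24, limma adjusted p = 0.00175) and miR-467h/miR-669d/miR-669l (0.52 ± 0.14, adjusted p = 0.0107). The members that fell were miR-467c (-0.81 ± 0.13, limma adjusted p = 0.000609), miR-669a (-0.59 ± 0.17, adjusted p = 0.0139), miR-669e (-0.54 ± 0.20, adjusted p = 0.0488), miR-466a-3p/miR-466b-3-3p (-0.48 ± 0.14, adjusted p = 0.0177) and miR-669o (-0.42 ± 0.12, adjusted p = 0.0137). MiR-669f (0.40 ± 0.21, adjusted p = 0.152) and miR-466g (0.41 ± 0.28, adjusted p = 0.259) did not pass. The groups did not overlap in 2 members that were higher, against 16.3% of the 166, and in 5 that were lower, against 31.9%, with miR-467a in place of miR-669e among the latter. The medians were -0.17 over the members and -0.06 over the 166.

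**Figure D4:**
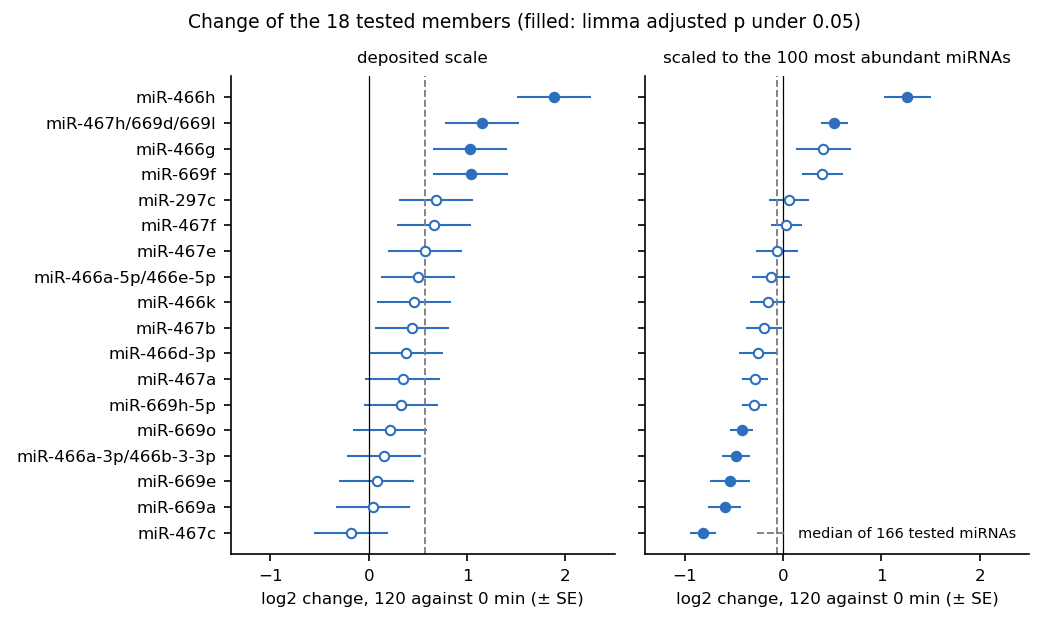
Log2 change with SE of the 18 tested members at 120 against 0 min, on the deposited scale (left) and scaled to the 100 most abundant miRNAs (right), with filled points where the limma adjusted p is under 0.05 and a dashed line at the median of the 166 tested miRNAs. MiR-466h is the highest in both panels (1.88 and 1.26), and miR-467c the lowest (-0.18 and -0.81).

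Sample by sample on this scale, miR-467c gave 1369, 1133 and 1200 at 0 min and 679, 683 and 736 at 120 min, with 792 to 1019 at 30 min and 706 to 781 at 60 min. MiR-669a gave 1262, 893 and 981 at 0 min and 734, 695 and 629 at 120 min. MiR-467h/miR-669d/miR-669l went the other way, with 96.3, 109.3 and 108.2 at 0 min and 138.1, 151.5 and 162.6 at 120 min. None of the 3 had overlapping groups at these 2 times.

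On the same scale miR-669o gave 496, 493 and 470 at 0 min and 368, 341 and 382 at 120 min, again without overlap. MiR-669f gave 1867, 2575 and 1497 at 0 min and 2623, 2781 and 2266 at 120 min, where the third 120 min sample lay below the second 0 min sample. The counts themselves ran from 682 to 1062 in miR-467c and from 930 to 4103 in miR-669f, ranges that include the samples' different depths.

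**Figure D5:**
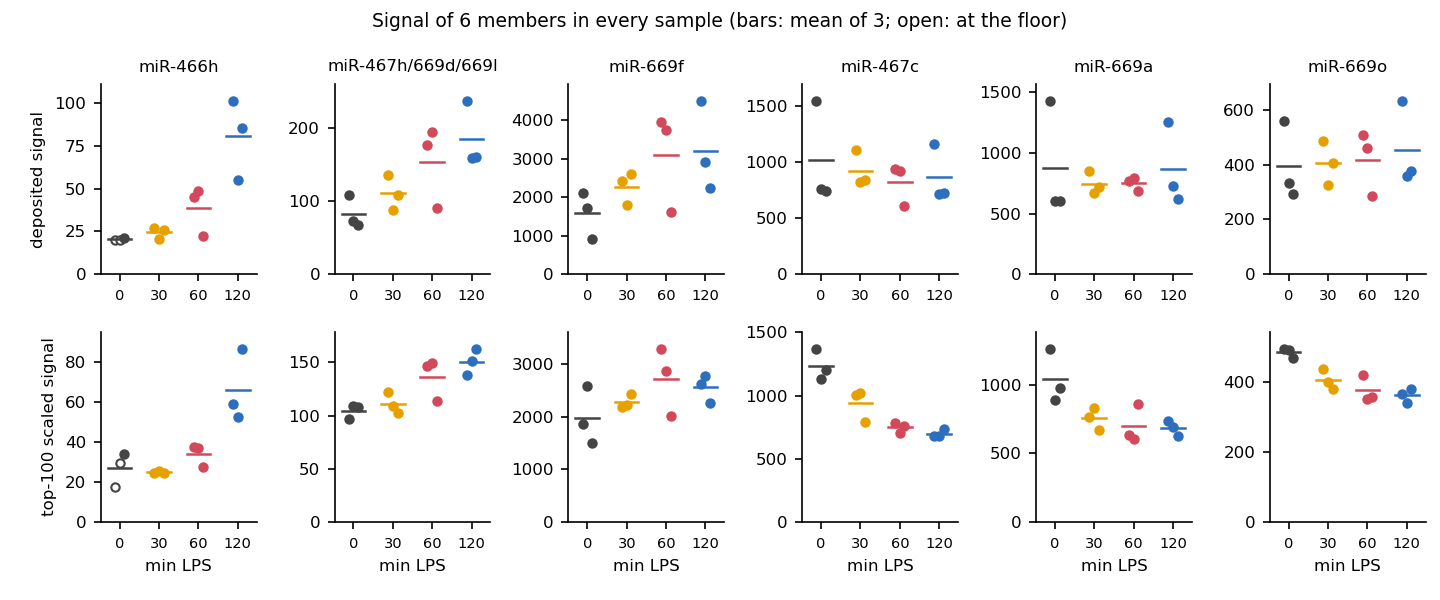
Signal of 6 members in each sample by minutes of LPS, as deposited (upper row) and scaled to the 100 most abundant miRNAs (lower row), with bars at the mean of 3 samples and open points for floored entries. Scaled miR-467c is below its 0 min samples at every later time, and miR-466h is highest at 120 min on both scales.

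One 0 min sample bears on several of these values. When 0 min replicate 1 was left out under top-100 scaling, an alternative chosen after seeing the data, 2 members rose at 120 min (miR-466h 0.99, miR-467h/miR-669d/miR-669l 0.46) and 2 fell (miR-467c -0.74, miR-669o -0.41). MiR-669a (-0.45, adjusted p = 0.0661), miR-466a-3p/miR-466b-3-3p (-0.41, adjusted p = 0.07) and miR-669e (-0.33, adjusted p = 0.212) then did not pass in limma. On the deposited scale, the 4 calls at 120 min became 7 without 0 min replicate 1 and 1, miR-466h, without 0 min replicate 2, without 0 min replicate 3 or without 120 min replicate 1.

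For the weak members the floor sets what can be said. On the deposited scale, counting each floored entry at the most it can hide, miR-466h was at least 2.76-fold higher at 120 min than at 0 min. MiR-466g was at least 1.47-fold higher there by its means. In the fit with floored entries so counted it did not pass (log2 change 0.62, limma adjusted p = 0.238). These bounds hold for that scale only, on which the median log2 change of the 166 was 0.57, and they were not computed under another scaling. With the same floor of 45.29 in every sample, miR-466h still passed (log2 change 0.77, limma adjusted p = 0.0323) while miR-466g had a change of 0.07. With that common floor and top-100 scaling together, miR-466h had a change of 0.16 (limma adjusted p = 0.646) and miR-466g of -0.54 (adjusted p = 0.0948).

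Ratios of members within a sample need no scaling at all, and the pairs given here were chosen after their values were seen. MiR-669f over miR-669a was 1.48, 2.88 and 1.53 at 0 min, 2.85, 2.69 and 3.62 at 30 min, 5.16, 4.74 and 2.34 at 60 min, and 3.57, 4.0 and 3.61 at 120 min. The 120 min ratios were all above those at 0 min, an order that was known when the pair was chosen and supports nothing further. The probe miR-467h/miR-669d/miR-669l over miR-467c was 0.0704 to 0.0965 at 0 min, 0.107 to 0.13 at 30 min, 0.15 to 0.211 at 60 min and 0.203 to 0.222 at 120 min. No ratio at a later time fell within the 0 min range. MiR-669a over miR-467c was 0.788 to 0.922 at 0 min and 0.853 to 1.08 at 120 min, with overlap.

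Between stimulated times little was called among the members. From 30 to 60 min 0 of 18 passed in limma (0 with an unadjusted p under 0.05), against 0.602% of the 166, and from 60 to 120 min 0 of 18 passed (1 with an unadjusted p under 0.05, miR-466h with 1.07 ± 0.38), against 0% of the 166.

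The UG-repeat miRNAs outside the 4 families, miR-1187 and miR-574-5p, were set beside the members for their sequences.
miR-1187 (chr5:82798964-82798986, minus strand): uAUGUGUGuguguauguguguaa
miR-574-5p (chr5:64970328-64970350, plus strand): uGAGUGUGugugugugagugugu
MiR-1187 was above the floor in all 12 samples, from 23.95 to 97.37, and miR-574-5p in 5 samples, at most 47.5. MiR-1187 had a log2 change of -0.26 ± 0.38 at 120 min (limma adjusted p = 0.655) and fell under top-100 scaling (-0.88 ± 0.24, adjusted p = 0.0111). It matches miR-466j at 19 of 23 bases, and miR-466j was at the floor in every sample. The seed of miR-467h is also that of miR-668-5p. The miR-668 probe, which names no arm, stayed at the floor throughout.

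The miR-290 to miR-295 cluster, which with the Sfmbt2 cluster is known from early embryo and trophoblast, gave almost no signal. Of its 11 probes, 8 were at the floor in all 12 samples. MiR-292-5p (44.92, 31.89 and 29.94) and miR-293 (42.73, 21.53 and 28.44) were above the floor in the 3 samples at 120 min alone, and miR-290-3p in 2 samples.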

How the data were processed

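The deposited values are a signal, and the authors' normalization steps are not given in the sources used here. Read from the deposited signal itself, every miRNA value is a whole number of counts (within 0.1 of a count, for signal above 20 and below 2000) multiplied by 1 factor per sample, from 0.748 to 2.26, which sets the geometric mean of 4 housekeeping mRNAs to 9390.3 in all 12 samples, with a floor of 20. Because floored counts are hidden, no count model was used. Limma 3.58.1 (R 4.3.3) fitted log2(signal + 1) with 1 mean per time and two-sided tests. The 166 mouse miRNAs with a mean signal above 30.5 were tested, with Benjamini-Hochberg adjustment over all 166 and a threshold of 0.05. The cut-off of 30.5 was set 2 SD above the average negative control, but with controls taken in counts and miRNAs in signal. These units differ by the factor of each sample, so a tested miRNA need not lie 2 SD above background. A cut-off in common units was not tried. Summaries were made in Python 3.11.15 with pandas 2.3.3 and numpy 2.4.6. That fit gave every miRNA the same SE, pooling residuals that share sample-wide factors, so very small p values overstate what 3 against 3 samples can show. In sums and shares, floored entries counted as 0. The fit was also run on simulated data with noise independent between values, which cannot show the effect of factors shared by a sample. The members and lists were chosen with earlier results of these data known. Members above the floor in any sample were named. In addition, miR-668 for its shared seed, the UG-repeat miRNAs, the miR-290 to miR-295 cluster and marker miRNAs were described. Names were matched to RefSeq tables, 2 of the 33 probes through 1 of their 2 names. Alternatives changed the scaling, floor, filter, pseudocount, variance model and replicates.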

Additional observations from a re-analysis of the deposited data

How the results depend on the processing

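The members called at 120 against 0 min numbered 4. They became 7 under top-100 scaling (2 higher, 5 lower), 7 with the common floor of 45.29 and top-100 scaling together (1 higher, 6 lower), 6 under ligation control scaling (1 higher, 5 lower), 1 under the common floor, 1 with no filter, and 2 with floored entries at the lowest measured signal of their sample. They ran from 1 to 7 when each replicate was left out in turn. At 60 against 0 min 0 became 3 under top-100 scaling, 3 with the common floor added, 5 under ligation control scaling, 1 under top-100 scaling leaving out 0 min replicate 1, and 0 to 4 with replicates left out, the 4 without 0 min replicate 1 and without 60 min replicate 3. At 30 against 0 min ligation control scaling gave 5, all lower, where the median change of the 166 was -0.52 and that of the members -0.39. At 120 against 60 min the count was 1 in place of 0 under ligation control scaling and top-100 scaling leaving out 0 min replicate 1, and 0 to 1 with replicates left out. With the replicate number as a block, 5 members passed at 60 against 0 min and 1 at 120 against 60 min. Across miRNAs, deviations of same-numbered samples from the group means had correlations of -0.382 to 0.350 (median 0.0503, and 5 of 18 above 0.1). Such a correlation takes out any shift common to all miRNAs of a sample, so it cannot show whether same-numbered samples share one. The top-100 scaling factor was highest in replicate 1 at 0, 30 and 120 min (1.13, 1.11 and 1.71) and in replicate 2 at 60 min (1.31). Whether the numbers pair the samples was not settled, and the main fit did not pair them. The alternative with floored entries at the lowest measured signal and those leaving out 0 min replicate 1 under another scaling were chosen after seeing the data. The share of all tested miRNAs that passed was counted only for the deposited and top-100 scales with all 12 samples. Under top-100 scaling at 120 min, 14.5% of the 166 rose and 27.1% fell. Member counts under the other alternatives therefore cannot be called particular to the members.

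Signs of members passing in either of the fits compared turned only under the other scalings. Under ligation control scaling these were, at 30 min, miR-467e -0.65, miR-669h-5p -0.61 and miR-669o -0.73, at 60 min miR-466a-3p/miR-466b-3-3p -0.59, miR-669h-5p -0.67 and miR-669o -0.72, and at 120 min miR-466a-3p/miR-466b-3-3p -0.60, miR-669a -0.72, miR-669e -0.66 and miR-669o -0.54. Under top-100 scaling they were miR-669o at 60 min (-0.37) and, at 120 min, miR-466a-3p/miR-466b-3-3p -0.48, miR-669a -0.59, miR-669e -0.54 and miR-669o -0.42 (-0.41 leaving out 0 min replicate 1). With the common floor added they were miR-669o at 60 min (-0.35) and, at 120 min, miR-466a-3p/miR-466b-3-3p -0.47, miR-466g -0.54, miR-466k -0.62, miR-669a -0.58, miR-669e -0.77 and miR-669o -0.41. A further 130 of 1242 member values changed sign while passing in neither fit. MiR-466h passed at 120 min in 23 of 24 settings, miR-467h/miR-669d/miR-669l in 18, miR-669f in 13 and miR-466g in 12.

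Members above the floor averaged 19.8 per sample, against 17 above the highest negative control (12 to 21) and 14.2 above the common floor (12 to 19). With floored entries counted at 20, the miR-297 sum was 127.8 in place of 87.8 at 0 min and 180.6 in place of 140.6 at 30 min. Beyond the scaling and the floor, the cause of these changes was not tested. Depth limits the members near the floor, whose order cannot be read.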
